A study of Homo sapiens with 3 samples.

Results

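The genes described here are 31 genes of glucose breakdown, chosen by name from the 32738 genes of the deposited tables. They comprise 2 glucose transporters, 15 enzymes of glycolysis, 2 lactate dehydrogenase subunits, 4 genes of the pyruvate dehydrogenase step and 8 enzymes of the TCA cycle. All 31 had a row in the files. Of these, 29 reached the minimum level used to compare libraries, 5 CPM (counts per 1000000 UMIs in the library's cells) in 1 library of each pair, and the other 2 were SLC2A3 and PDK3.

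The cells were Kelly, a human neuroblastoma line known for amplification of MYCN and for a mutation that activates the receptor kinase ALK. The states differ in their response to TAE684, which inhibits ALK. Sensitive cells were kept with DMSO, intermediate resistant cells with 500 nM TAE684 and fully resistant cells with 1 µM TAE684. All 3 cultures shared the line, the RPMI-1640 medium and the serum. Each state is 1 droplet library (10x Genomics 3' v2), so resistance, drug dose and culture cannot be told apart, no test was made, and every interval below is a 95% interval of counting error only.

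The cell rule (at least 5000 UMIs, at least 500 genes and at most 20% mitochondrially encoded UMIs) left 5415 sensitive, 6288 intermediate resistant and 6331 fully resistant cells, holding 95119772, 102449567 and 106163582 UMIs in that order. Median UMIs per cell lay between 15660.5 and 16014 and median genes between 3413 and 3633. Ribosomal protein genes took 36.6% of the UMIs in sensitive, 39.5% in intermediate resistant and 33.5% in fully resistant cells, and mitochondrially encoded genes 5.57%, 5.13% and 6.57%. These shares move with the libraries, and their part in the differences below was not tested beyond the scaling alternative without these genes. All 12 sympathetic neuroblast markers were above 5 CPM in each library, with summed levels of 3857, 4578 and 2607 CPM in the same order. Summed immune, endothelial and erythroid markers stayed at or below 2.58 CPM. Fibroblast markers summed to 41.6, 44.1 and 32.0 CPM and epithelial markers to 7.73, 12.9 and 1.23 CPM in the order sensitive, intermediate resistant and fully resistant. Sensitive and intermediate resistant libraries shared 38 cell barcodes, against 46.18 for independent draws. Sensitive and fully resistant libraries shared 62, against 46.5, and intermediate and fully resistant libraries 56, against 53.99. Free RNA, bounded from barcodes of 20 to 200 UMIs, made up at most 0.593% of the level of any of the 30 genes measured this way.

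Glycolysis splits glucose into pyruvate in the cytosol, first spending ATP on sugar phosphates and then earning it back from the triose steps. Pyruvate is then either reduced to lactate, which regenerates NAD+, or turned into acetyl-CoA by the mitochondrial pyruvate dehydrogenase complex, which PDK kinases switch off, and burned in the TCA cycle. Proliferating tumour cells, MYCN-amplified neuroblastoma included, are known for high glycolytic gene expression, and hypoxia-inducible factors and MYC proteins are textbook activators of several of these genes.

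SLC2A1, HK2 and PDK1 differed by at least 2-fold between fully resistant and sensitive cells, and all of them are known targets of hypoxia-inducible factors. Their start regions are therefore shown. The sequences run from 250 bases before to 50 bases after each annotated start (RefSeq, build GRCh38.p14), in lower case, with matches to the core of the hypoxia response element in capitals. The letters searched were ACGTG and GCGTG on both strands, so a match on the other strand reads CACGT or CACGC.
SLC2A1, chr1:42958819-42959118, minus strand: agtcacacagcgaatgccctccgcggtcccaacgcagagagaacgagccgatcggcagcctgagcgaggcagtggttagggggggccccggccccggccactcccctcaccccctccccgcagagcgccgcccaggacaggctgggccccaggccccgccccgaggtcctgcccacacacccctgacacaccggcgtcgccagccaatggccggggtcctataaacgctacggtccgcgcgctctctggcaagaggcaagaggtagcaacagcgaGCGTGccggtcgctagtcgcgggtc
HK2 first start, chr2:74833877-74834176, plus strand: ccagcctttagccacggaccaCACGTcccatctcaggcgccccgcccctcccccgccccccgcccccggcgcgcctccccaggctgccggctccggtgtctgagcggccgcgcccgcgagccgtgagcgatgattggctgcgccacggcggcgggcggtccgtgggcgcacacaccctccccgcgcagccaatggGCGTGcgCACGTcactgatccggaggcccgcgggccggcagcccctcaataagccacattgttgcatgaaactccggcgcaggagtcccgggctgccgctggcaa
HK2 second start, chr2:74834920-74835219, plus strand: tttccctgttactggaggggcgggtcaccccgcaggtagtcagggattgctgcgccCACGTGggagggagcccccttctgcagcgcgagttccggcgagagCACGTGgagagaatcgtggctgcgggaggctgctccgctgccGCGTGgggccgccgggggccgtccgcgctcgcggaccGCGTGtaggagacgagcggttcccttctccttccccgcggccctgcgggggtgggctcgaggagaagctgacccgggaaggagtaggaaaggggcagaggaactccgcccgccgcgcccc
PDK1 first start, chr2:172555123-172555422, plus strand: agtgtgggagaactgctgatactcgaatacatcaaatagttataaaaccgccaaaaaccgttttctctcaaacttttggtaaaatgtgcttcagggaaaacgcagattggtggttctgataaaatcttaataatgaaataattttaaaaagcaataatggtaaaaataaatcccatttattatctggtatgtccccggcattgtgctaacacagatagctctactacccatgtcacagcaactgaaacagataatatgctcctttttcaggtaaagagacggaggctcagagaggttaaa
PDK1 second start, chr2:172555840-172556139, plus strand: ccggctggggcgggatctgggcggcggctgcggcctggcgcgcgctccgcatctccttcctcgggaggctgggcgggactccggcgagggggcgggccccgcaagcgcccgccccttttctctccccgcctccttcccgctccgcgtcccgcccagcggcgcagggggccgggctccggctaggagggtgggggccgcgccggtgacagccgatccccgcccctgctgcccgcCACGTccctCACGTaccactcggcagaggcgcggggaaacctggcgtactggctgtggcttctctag

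The single SLC2A1 window held 1 match. The HK2 windows held 3 and 6, and the PDK1 windows 0 and 2. A match also falls inside the E-box CACGTG that MYC proteins bind, which counts here on both strands. The second HK2 window held 2 such E-boxes and the other 4 windows none. Such letters are common. Of 27305 genes with a window, 52.4% had at least 1 hypoxia core match and 8.78% had CACGTG. Of the 29 genes of the set with a window, 25 had a hypoxia core match and 6 had CACGTG. A gene was counted if any of its windows matched. The 29 genes have 51 windows and the 27305 genes 35116, so the shares are not matched for windows per gene. The counts of the set are therefore not read as an excess. Of all windows, 48.45% had a hypoxia core match and 7.26% had CACGTG. Counts from the 3' end do not tell which start was used, and a match is a description and not a measured binding site.

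Most genes of the set lay close to their level in the other libraries. Between fully resistant and sensitive cells, 18 of the 29 measured genes (62.1%) were within 1.25-fold, against 48.4% of all 9800 genes measured alike. Between intermediate resistant and sensitive cells it was 20 of 29 (69.0%), against 61.8% of all genes, and between fully and intermediate resistant cells 19 of 29 (65.5%), against 55.7%. All genes were not matched to the set in level, so these shares are not read as a property of the set.

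To be counted as different, a gene needed 20 CPM or more in the higher library and a difference of 1.5-fold or more. By this size rule 1 of 22 genes, HK2, was higher in fully resistant than in sensitive cells, while 14.7% of all genes were. SLC2A1, GPI, ENO2 and PDHB, 4 of 22, were lower, while 12.2% of all genes were. Neither count is read as a property of the set. At 2-fold HK2 was the 1 higher gene (5.47% of all genes) and SLC2A1 the 1 lower gene (5.56%).

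In intermediate resistant against sensitive cells none of the 21 genes at that level passed, 0 higher and 0 lower, while 4.72% of all genes were higher and 10.2% lower. In fully against intermediate resistant cells HK2 was again the 1 higher gene of 22 (12.4% of all genes), and SLC2A1, PFKM, ENO2 and PDHB were the 4 lower ones (6.35% of all genes). At 2-fold the counts were 0 and 0 in intermediate resistant over sensitive cells (1.74% and 3.61% of all genes), and 0 higher and 1 lower, SLC2A1, in fully over intermediate resistant cells (4.53% and 2.83%). The pairs share libraries, so they do not support each other.

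The median log2 ratio of the 29 measured genes was -0.17 in fully resistant over sensitive cells, against 0.08 for all genes. It was -0.02 in intermediate resistant over sensitive cells, against -0.08. In fully over intermediate resistant cells it was -0.02, against 0.15, an offset of all genes that trimmed-mean (TMM) scaling brings to 0.01. That scaling also alters the split of all called genes. Higher genes were 54.6% of those called in fully resistant over sensitive cells and 43.2% with TMM, and 66.2% of those called in fully over intermediate resistant cells and 48.1% with TMM.

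**Figure D1:**
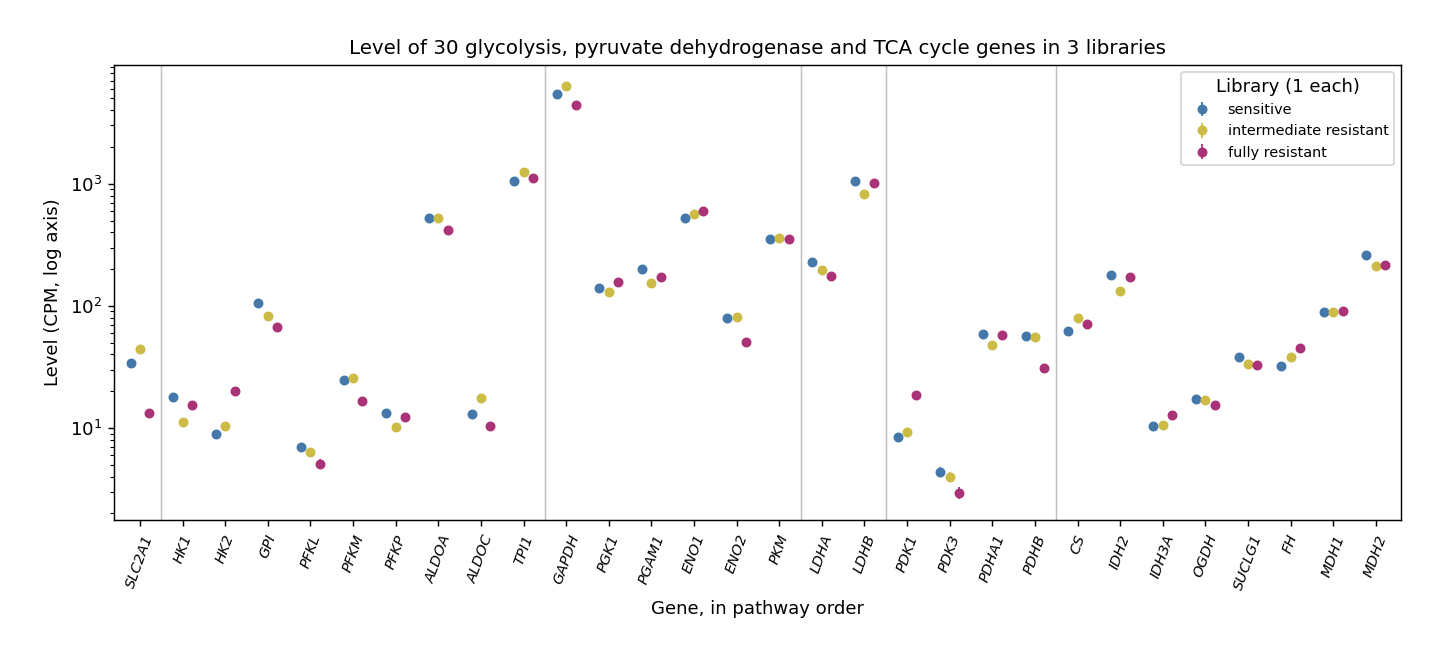
Level of 30 genes (CPM, log axis) in each library, in pathway order from glucose uptake to the TCA cycle, with 1 point per library and 95% counting intervals that are mostly smaller than the point. SLC2A1 sits at 13.2 CPM in fully resistant cells, below both other libraries, while HK2 and PDK1 are highest there, and SLC2A3 is left out because it had at most 3 UMIs.

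Of the 2 transporter genes in the set, SLC2A1, which encodes GLUT1, held nearly all UMIs. SLC2A1 stood at 34.0 CPM in sensitive, 44.7 CPM in intermediate resistant and 13.2 CPM in fully resistant cells. The fully resistant library was thus the low one and the intermediate resistant library the high one. SLC2A1 was 2.57-fold lower in fully resistant than in sensitive cells (2.41 to 2.73) and 3.38-fold lower in fully than in intermediate resistant cells (3.18 to 3.59). In intermediate resistant cells it was 1.32-fold higher than in sensitive cells (1.26 to 1.38), short of the size rule. The neuronal transporter SLC2A3 (GLUT3) had 2 UMIs in sensitive cells, 0 in intermediate resistant cells and 3 in fully resistant cells. These counts are at or under the floor of 3 UMIs, so no ratio was formed.

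Hexokinases trap glucose in the cell as glucose 6-phosphate. HK2, the inducible form that binds mitochondria, had 8.92 CPM in sensitive, 10.4 CPM in intermediate resistant and 20.05 CPM in fully resistant cells. It was 2.25-fold higher in fully resistant than in sensitive cells (2.08 to 2.44) and 1.93-fold higher in fully than in intermediate resistant cells (1.79 to 2.07). The high library is only just above the 20 CPM that the size rule asks for. Under settings that lower it slightly the gene is no longer counted, although its log2 ratio over sensitive cells stayed between 1.08 and 1.31 under every setting run. HK1, the form most tissues use, had 17.8 CPM in sensitive, 11.3 CPM in intermediate resistant and 15.4 CPM in fully resistant cells. It was 1.58-fold lower in intermediate resistant than in sensitive cells (1.46 to 1.70), at a level too low to be counted. At a minimum of 5 CPM it is the 1 gene of 29 counted as lower there, while 12.2% of all genes are, and 0 are counted as higher, while 5.83% of all genes are.

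Of the other preparatory enzymes, GPI and PFKM were counted as lower in fully resistant cells in 1 pair each, and none as higher. GPI, which turns glucose 6-phosphate into fructose 6-phosphate, had 106 CPM in sensitive, 81.9 CPM in intermediate resistant and 67.0 CPM in fully resistant cells. It was lower at each higher dose and was 1.58-fold lower in fully resistant than in sensitive cells (1.53 to 1.63). PFKM, the muscle type subunit of phosphofructokinase, the committed step of glycolysis, had 24.5 CPM in sensitive, 25.4 CPM in intermediate resistant and 16.6 CPM in fully resistant cells. PFKM was 1.53-fold lower in fully than in intermediate resistant cells (1.44 to 1.62). Against sensitive cells it was 1.48-fold lower (1.39 to 1.57), just short of the rule, and it passed under 5 alternatives, including all 3 other scalings.

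The other phosphofructokinase subunits were scarcer. PFKL, the liver type, ranged from 5.10 CPM in fully resistant to 7.03 CPM in sensitive cells. PFKP, the platelet type, ranged from 10.1 CPM in intermediate resistant to 13.3 CPM in sensitive cells. The aldolases split fructose 1,6-bisphosphate. ALDOA, the main aldolase, had 521 CPM in sensitive, 522 CPM in intermediate resistant and 418 CPM in fully resistant cells. ALDOC, the brain form, had 12.96 CPM in sensitive, 17.7 CPM in intermediate resistant and 10.3 CPM in fully resistant cells. TPI1, which interconverts the trioses, stayed between 1061 CPM in sensitive and 1255 CPM in intermediate resistant cells. Its small excess in fully resistant over sensitive cells (log2 0.08) turns negative with TMM scaling.

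In the payoff phase the most abundant gene and its neighbours in the pathway parted. GAPDH, which makes the first NADH, had 5386 CPM in sensitive, 6339 CPM in intermediate resistant and 4410 CPM in fully resistant cells. It was 1.44-fold lower in fully than in intermediate resistant cells (1.43 to 1.44) and 1.22-fold lower than in sensitive cells (1.22 to 1.23). GAPDH passes the 1.5-fold rule in fully against intermediate resistant cells under all 3 other scalings.

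PGK1, the first ATP-yielding kinase, had 140.4 CPM in sensitive, 129 CPM in intermediate resistant and 157 CPM in fully resistant cells. PGAM1, a phosphoglycerate mutase, had 199 CPM in sensitive, 155 CPM in intermediate resistant and 171.5 CPM in fully resistant cells. PKM, the pyruvate kinase gene, hardly moved, at 354 CPM in sensitive, 363 CPM in intermediate resistant and 354 CPM in fully resistant cells, and the interval of its ratio of fully resistant over sensitive cells included 1. Of 106 pseudogenes named after 13 genes of the set, 62 of them after GAPDH, 0 have a row in the deposited tables. How reads shared with such copies were counted is uncertain for GAPDH, PGAM1, LDHA and PKM in particular.

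The enolases moved apart. ENO1, the ubiquitous form, had 525 CPM in sensitive, 564 CPM in intermediate resistant and 594 CPM in fully resistant cells. ENO2, the neuron-specific enolase used as a neuroblastoma marker, had 79.2 CPM in sensitive, 80.6 CPM in intermediate resistant and 50.9 CPM in fully resistant cells. Only the fully resistant library was low for ENO2. ENO2 was 1.55-fold lower there than in sensitive cells (1.501 to 1.61) and 1.58-fold lower than in intermediate resistant cells (1.53 to 1.64).

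Lactate dehydrogenase is a tetramer of the LDHA subunit, which favours lactate formation, and the LDHB subunit, which favours pyruvate formation. LDHA had 229 CPM in sensitive, 198 CPM in intermediate resistant and 174 CPM in fully resistant cells, and was 1.31-fold lower in fully resistant than in sensitive cells (1.29 to 1.34). LDHB had 1047 CPM in sensitive, 826 CPM in intermediate resistant and 1017 CPM in fully resistant cells. Neither passed the size rule in any pair.

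**Figure D2:**
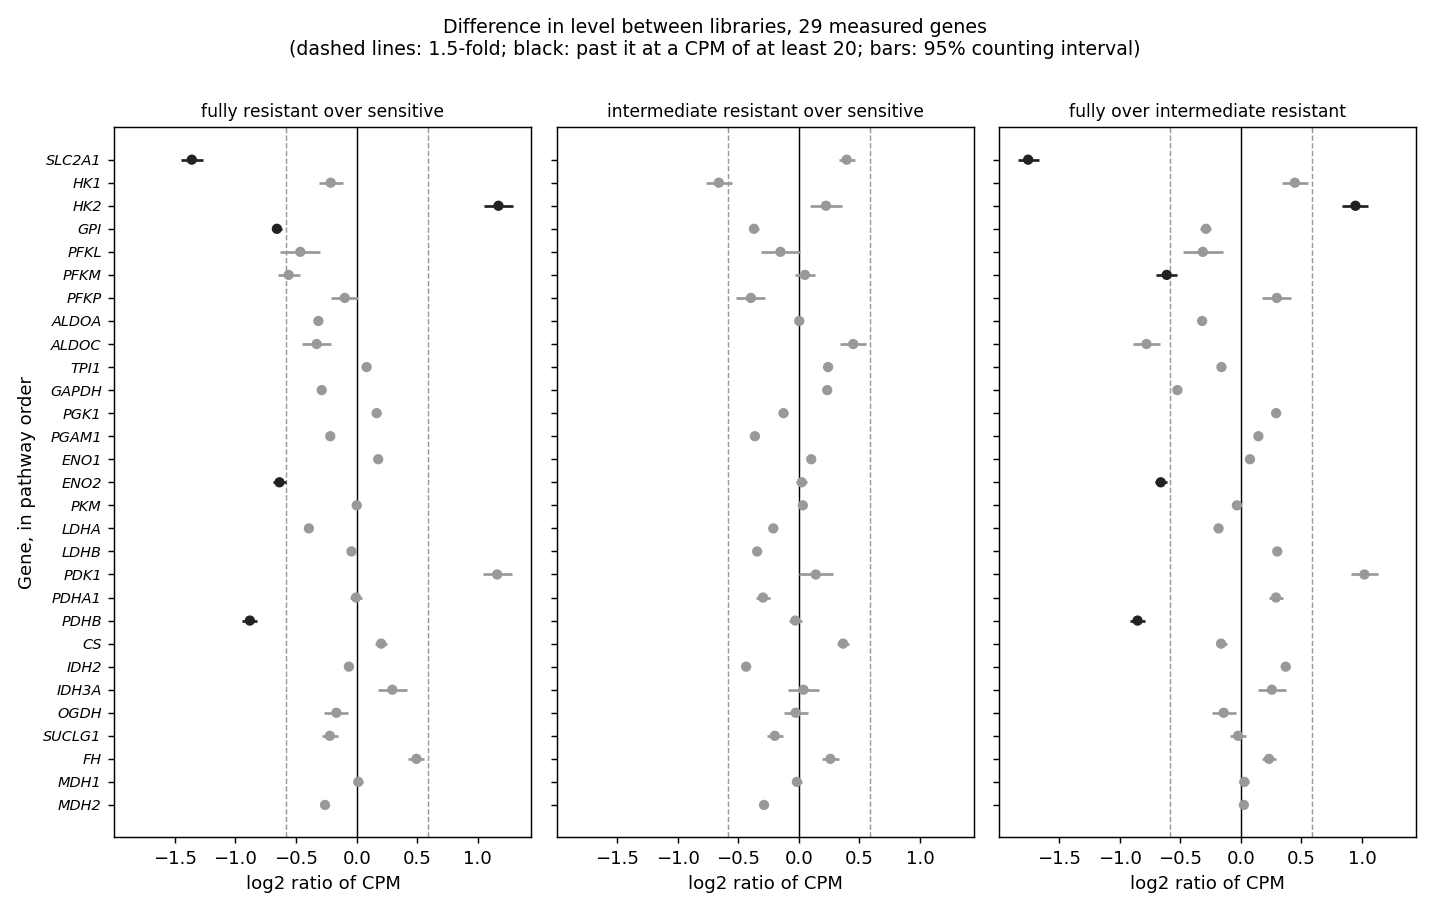
Log2 ratio of CPM for the 29 measured genes in the 3 pairs of libraries, with 95% counting intervals, dashed lines at 1.5-fold and black points for genes past it at 20 CPM or more. The pairs share libraries. In the panel of intermediate resistant over sensitive cells no point is black, and PDK1 lies far right in both panels of the fully resistant library but stays grey because its highest level is 18.7 CPM.

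At the gate into the TCA cycle, 1 subunit gene was lower and 1 kinase gene higher in fully resistant cells. PDHB, the beta subunit of the E1 enzyme of pyruvate dehydrogenase, had 57.0 CPM in sensitive, 55.9 CPM in intermediate resistant and 30.97 CPM in fully resistant cells. PDHB was 1.84-fold lower in fully resistant than in sensitive cells (1.76 to 1.92) and 1.81-fold lower than in intermediate resistant cells (1.73 to 1.89). Its partner in E1, the alpha subunit PDHA1, had 58.3 CPM in sensitive, 47.6 CPM in intermediate resistant and 58.1 CPM in fully resistant cells. The ratio of PDHA1 in fully resistant over sensitive cells had an interval that included 1.

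PDK1 encodes a kinase that phosphorylates and switches off E1. PDK1 had 8.36 CPM in sensitive, 9.21 CPM in intermediate resistant and 18.7 CPM in fully resistant cells. It was 2.23-fold higher in fully resistant than in sensitive cells (2.06 to 2.43) and 2.03-fold higher than in intermediate resistant cells (1.87 to 2.19). The gene is under 20 CPM in every library and so is not among the counted genes. With a minimum of 5 CPM, HK2 and PDK1 are the 2 of 29 genes counted as higher in fully resistant than in sensitive cells, while 15.2% of all genes are. In fully over intermediate resistant cells that minimum gives 2 higher genes, again HK2 and PDK1 (13.8% of all genes), and 5 lower ones, the 4 above and ALDOC (8.13%). PDK3, another kinase of the family, had 4.35 CPM in sensitive, 3.95 CPM in intermediate resistant and 2.92 CPM in fully resistant cells, under the 5 CPM minimum.

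None of the 8 TCA cycle genes passed the size rule in any pair, and 6 of them were at 20 CPM or more. In fully resistant over sensitive cells their log2 ratios ran from -0.26 (MDH2) to 0.49 (FH), while those of the glycolytic genes ran from -1.36 (SLC2A1) to 1.17 (HK2). FH, fumarase, had 31.9 CPM in sensitive, 38.2 CPM in intermediate resistant and 44.9 CPM in fully resistant cells, and was 1.41-fold higher in fully resistant than in sensitive cells (1.35 to 1.47). CS, citrate synthase, which starts the cycle, had 62.1 CPM in sensitive, 80.0 CPM in intermediate resistant and 71.5 CPM in fully resistant cells.

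IDH2, the mitochondrial NADP-linked isocitrate dehydrogenase, had 179 CPM in sensitive, 133 CPM in intermediate resistant and 171 CPM in fully resistant cells. IDH2 was 1.35-fold lower in intermediate resistant than in sensitive cells (1.32 to 1.38). MDH2, the malate dehydrogenase of the mitochondrion, had 260 CPM in sensitive, 213 CPM in intermediate resistant and 217 CPM in fully resistant cells. MDH1, its cytosolic counterpart, stayed between 88.8 and 90.6 CPM, and all 3 of its ratio intervals included 1. IDH3A, a subunit of the NAD-linked isocitrate dehydrogenase, lay between 10.4 and 12.7 CPM. OGDH, the first enzyme of the oxoglutarate dehydrogenase complex, lay between 15.4 and 17.3 CPM, and SUCLG1, a subunit of succinyl-CoA ligase, between 33.0 and 38.4 CPM.

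Shares within an enzyme family do not depend on how libraries are scaled. Each family share below is of the UMIs of the family members in the set, not of protein or activity. HK2 held 33.4% of hexokinase UMIs in sensitive cells (31.5 to 35.2), 48.0% in intermediate resistant cells (45.9 to 50.1) and 56.6% in fully resistant cells (55.0 to 58.2). HK1 was therefore the major form in sensitive cells and HK2 in fully resistant cells, with near equality between them in intermediate resistant cells.

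PDK1 made up 65.8% of the PDK1 and PDK3 UMIs in sensitive, 70.0% in intermediate resistant and 86.5% in fully resistant cells. PDK2, a related kinase outside the set, was above PDK1 in every library. It had 51.2 CPM in sensitive, 40.0 CPM in intermediate resistant and 33.8 CPM in fully resistant cells, so PDK1 was not the major kinase gene. Among phosphofructokinase subunits PFKM held 54.7% in sensitive, 60.7% in intermediate resistant and 48.7% in fully resistant cells. PFKP held 29.6% in sensitive, 24.1% in intermediate resistant and 36.3% in fully resistant cells, and PFKL between 14.9% and 15.7%. The fully resistant library thus had the lowest PFKM share and the highest PFKP share.

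ENO2 held 13.1% of enolase UMIs in sensitive, 12.5% in intermediate resistant and 7.90% in fully resistant cells. LDHA held 17.9% of lactate dehydrogenase UMIs in sensitive, 19.3% in intermediate resistant and 14.6% in fully resistant cells. In all 3 libraries LDHB was the major lactate dehydrogenase subunit and ALDOA the major aldolase, with 2.41% to 3.28% for ALDOC.

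**Figure D3:**
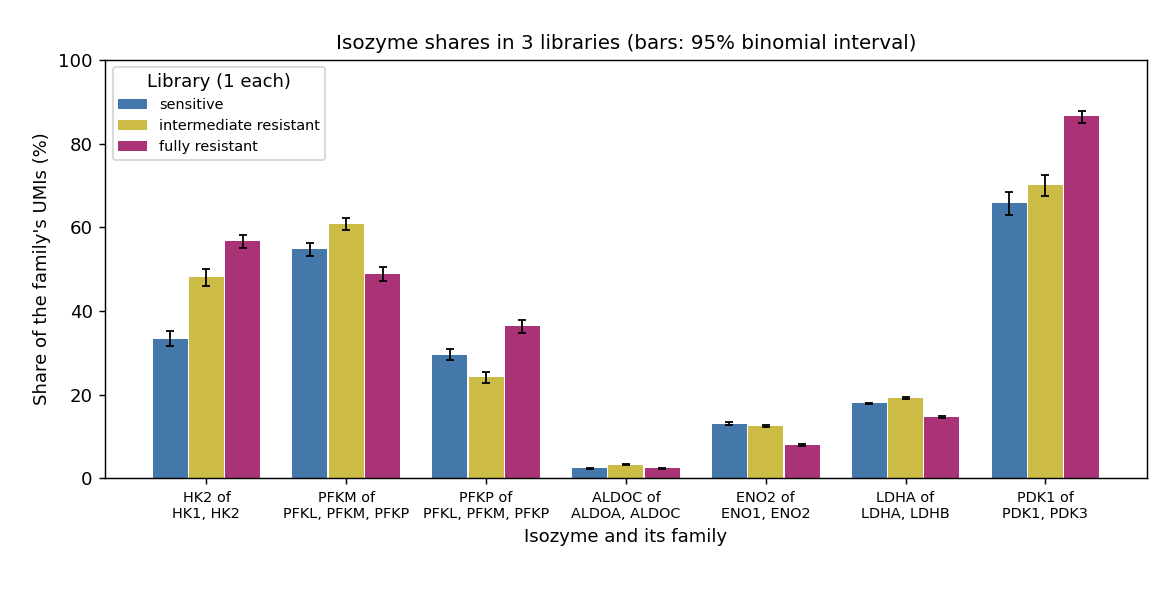
Share of a family's UMIs (%, bars from 0) held by each named isozyme in each library, with exact binomial 95% intervals. The share of HK2 is 56.6% and that of PDK1 among PDK1 and PDK3, without PDK2, is 86.5% in fully resistant cells. These are their highest, while ENO2 has its smallest share there, 7.90%.

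Summed over the 19 genes of uptake, glycolysis and lactate formation, the level was 9766 CPM in sensitive, 10637.9 CPM in intermediate resistant and 8631 CPM in fully resistant cells. GAPDH alone accounted for 55.2% of this sum in sensitive, 59.6% in intermediate resistant and 51.1% in fully resistant cells. Without GAPDH the sums were 4380, 4299 and 4221 CPM in the same order, so most of the difference between sums was GAPDH. The 8 TCA cycle genes summed to 689 CPM in sensitive, 614 CPM in intermediate resistant and 656 CPM in fully resistant cells.

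Single cells were compared at 1 depth, after random thinning to 5000 UMIs. The 19 genes took a mean of 0.995% of a sensitive cell's UMIs, 1.07% of an intermediate resistant cell's and 0.861% of a fully resistant cell's. The central 90% of cells spanned 0.58% to 1.44% in sensitive, 0.62% to 1.6% in intermediate resistant and 0.5% to 1.3% in fully resistant cells, so the libraries overlapped widely. The TCA cycle genes took a mean of 0.0699%, 0.0616% and 0.0659% in the same order.

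GAPDH had a UMI in every thinned cell. Its variance over its mean was 2.75 in sensitive, 3.73 in intermediate resistant and 2.76 in fully resistant cells, against medians of 1.70, 2.29 and 2.25 for 100 genes of nearest mean level. Cells therefore differed more in GAPDH than in most genes of like level. Across cells GAPDH and the other 18 genes had a Pearson correlation of 0.33 in sensitive, 0.31 in intermediate resistant and 0.36 in fully resistant cells, over 5415, 6288 and 6331 cells that share 1 library and 1 depth each. The UMIs of those 18 genes, without GAPDH, and of the TCA cycle genes correlated at 0.20, 0.18 and 0.13 in the same order, weak values in sparse counts.

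The genes with the greatest ratios also differed in the share of cells with a UMI. At 5000 UMIs, SLC2A1 was seen in 14.9% of sensitive cells (13.98 to 15.9), 19.3% of intermediate resistant cells (18.4 to 20.3), and in 6.54% of fully resistant cells (5.94 to 7.18). Before thinning the shares were 39.3%, 43.05% and 18.5%. HK2 was seen in 4.27% of cells in the sensitive library, 5.28% in the intermediate resistant one and 9.54% in the fully resistant one, and in 13.5%, 14.8% and 25.9% before thinning. PDK1 was seen in 3.97% of sensitive cells, 3.91% of intermediate resistant cells and 8.81% of fully resistant cells, and in 13.1%, 13.7% and 24.2% before thinning. The shares for PDHB were 24.8%, 24.4% and 13.9% in the same order of libraries, and 60.0%, 57.2% and 38.8% before thinning. For HK2, PDK1 and PDHB the variance over the mean lay between 0.999 and 1.06, where 1 is the value for random sampling of molecules. Their means were at most 0.291 UMIs per cell, too sparse for this ratio to tell random sampling from a spread between cells. At 9500 UMIs per cell in fully resistant cells HK2 and PDK1 each had 1.11, against medians of 1.03 for 100 genes of nearest mean level. PDHB had 1.01 there, against 1.04. At 5000 UMIs per cell SLC2A1 had 1.10 in sensitive, 1.17 in intermediate resistant and 1.08 in fully resistant cells. The medians for 100 genes of nearest mean level were lower, at 1.02, 1.03 and 1.02. At 9500 UMIs per cell SLC2A1 had 1.20, 1.43 and 1.13 in the same order, against medians of 1.03, 1.06 and 1.02. The ratio of SLC2A1 was thus above that of the median gene of like level in every library. It was highest in intermediate resistant cells, where the mean was highest too. At 5000 UMIs the means were 0.169 UMIs per cell in sensitive, 0.232 in intermediate resistant and 0.0701 in fully resistant cells. The order of the ratios therefore does not rank the libraries by spread.

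**Figure D4:**
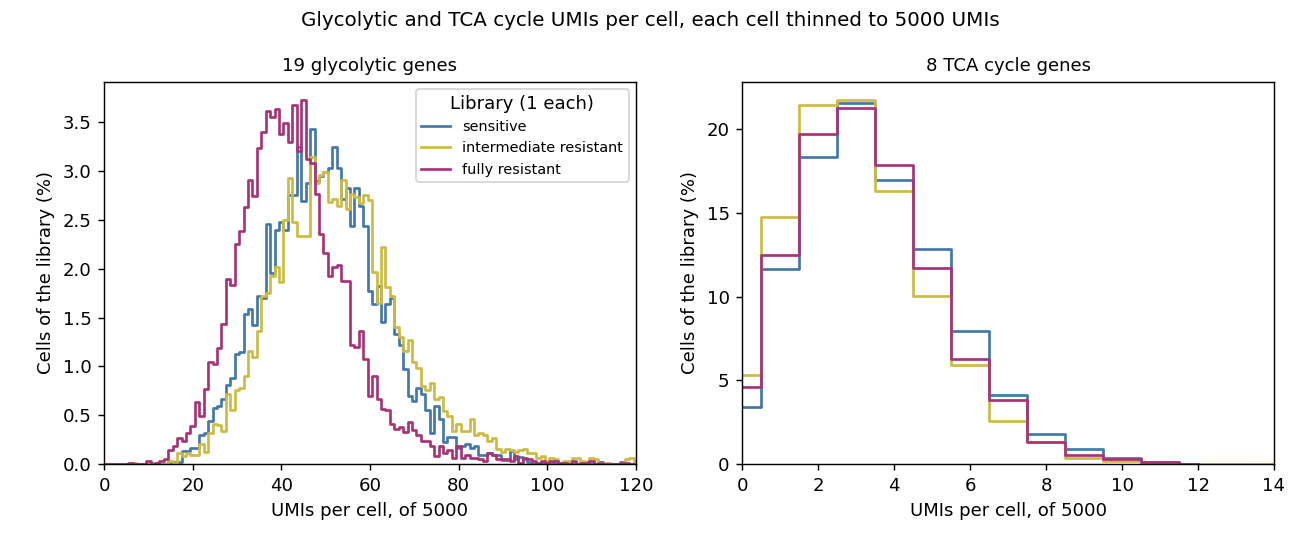
Distribution over cells of the UMIs in the 19 glycolytic genes and in the 8 TCA cycle genes after thinning each cell to 5000 UMIs (x axis, UMIs per cell; y axis, % of the library's cells). The glycolytic curve of fully resistant cells lies to the left of the others, with a mean of 0.861% of 5000 UMIs, and the TCA cycle curves nearly coincide.

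Cells were also split at the median share of S, G2 and M phase genes taken over all 3 libraries. In sensitive cells 23 of 30 genes were higher in the cells above that median, in intermediate resistant cells 22 and in fully resistant cells 23. Most genes of any kind were higher there, as the values of all genes below show, so these counts are not read as a property of the set. The median log2 ratio of cells above over cells below it was 0.09 in sensitive, 0.14 in intermediate resistant and 0.14 in fully resistant cells, below that of all genes in each (0.15, 0.24 and 0.19). PFKM had the lowest ratio in all 3 libraries, with log2 values of -0.28, -0.49 and -0.32, and GAPDH was also lower in the cells above it in each (-0.14, -0.21 and -0.15). FH was higher in the cells above it in each (0.26, 0.38 and 0.49). With the cells below that median alone, which made up 49.0% of the sensitive library, 55.8% of the intermediate resistant and 45.1% of the fully resistant one, the same 4 genes were lower in fully resistant than in sensitive cells. The split describes UMI shares of these lists, which free RNA also enters, and is not a call of cycling cells.

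PDHB lies on chromosome 3 among genes that were lower alongside it. Of its 20 nearest measured genes, 16 were lower in fully resistant than in sensitive cells, with a median log2 ratio of -0.97, against -0.88 for PDHB. In fully over intermediate resistant cells 15 of 20 were lower, with a median of -0.85, the same as for PDHB. In intermediate resistant over sensitive cells their median was -0.15, against -0.03 for PDHB.

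The other genes that differed did not share their shift with their neighbours in fully resistant over sensitive cells. The medians of 20 neighbours were 0.07 around SLC2A1 (chromosome 1), 0.21 around HK2 and 0.02 around PDK1 (both chromosome 2). They were 0.01 around GPI (chromosome 19), and 0.06 around ENO2 and 0.11 around PFKM (both chromosome 12). In fully over intermediate resistant cells 16 of the 20 neighbours of ENO2 were lower, with a median of -0.21, against -0.66 for ENO2. CS, on chromosome 12, had neighbours with a median of 0.55 in fully resistant over sensitive cells, against 0.20 for CS. Gene order was read from RefSeq on GRCh38.p14, a later build than the hg19 of the files.

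**Figure D5:**
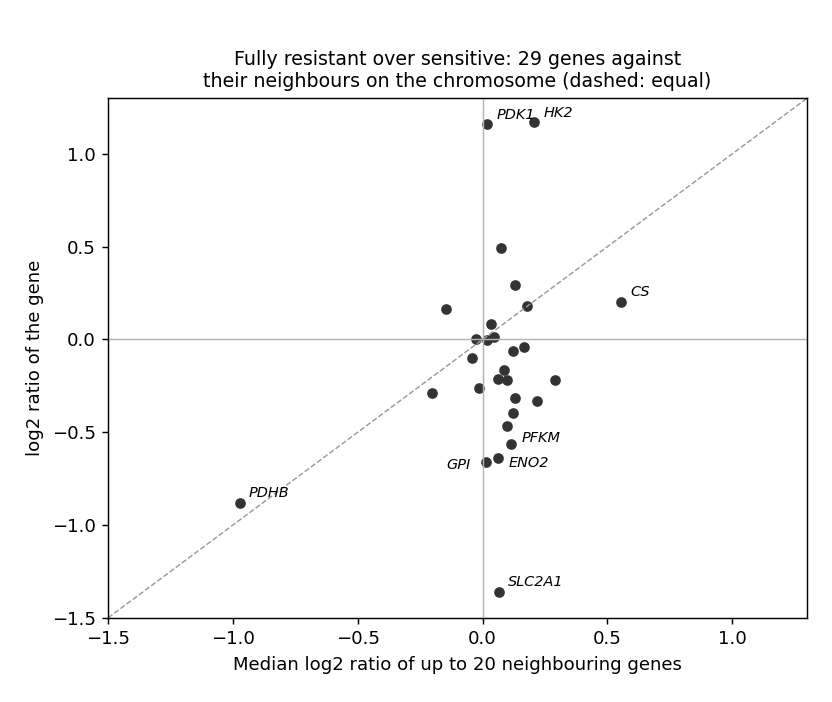
Log2 ratio of fully resistant over sensitive cells for each of the 29 measured genes (y axis) against the median log2 ratio of up to 20 measured neighbours on its chromosome (x axis), with a dashed line where they are equal. PDHB sits on the line at -0.88, while SLC2A1, HK2 and PDK1 lie far from it, with neighbour medians between 0.02 and 0.21.

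Genes around the pathway add to this picture, with the genes counted by the same size rule. On the list of other glycolysis genes 7 were at 20 CPM or more. Of these, 3 were higher and 0 lower in fully resistant than in sensitive cells. Of all genes 14.7% were higher and 12.2% lower, and the 3 are not read as a property of the list. SLC2A8, a mostly intracellular glucose transporter, had 37.5 CPM in fully resistant and 13.3 CPM in sensitive cells, and so was above SLC2A1 (13.2 CPM) in fully resistant cells. PGAM2, the muscle phosphoglycerate mutase, had 29.5 CPM in sensitive, 107 CPM in intermediate resistant and 44.3 CPM in fully resistant cells, and so peaked in intermediate resistant cells. The log2 ratio of PGAM2 in fully resistant over sensitive cells was 0.588, only just past the 1.5-fold rule. The third was PGAM5, with 41.9 CPM in fully resistant and 23.9 CPM in sensitive cells. PGAM5 is on the list although it is a mitochondrial phosphatase of the same fold and not an enzyme of glycolysis. Of the 18 neighbours of PGAM5 on chromosome 12, 17 were higher too, with a median log2 ratio of 0.58, against 0.81 for PGAM5.

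On the mitochondrial side, MPC1, a subunit of the carrier that brings pyruvate into the mitochondrion, had 34.3 CPM in sensitive, 30.1 CPM in intermediate resistant and 13.3 CPM in fully resistant cells. It was the 1 gene of 4 transport genes counted as lower in fully resistant than in sensitive cells (12.2% of all genes), by 2.58-fold (2.42 to 2.74), and 0 were higher (14.7%), and 16 of its 19 neighbours on chromosome 6 were lower too, with a median log2 of -0.48. PDK2, a kinase of E1 related to PDK1, was 1.52-fold lower in fully resistant than in sensitive cells (1.45 to 1.58), and was the 1 gene of 4 counted as lower among other pyruvate dehydrogenase genes (12.2% of all genes). Of 13 other genes of the TCA cycle and its side reactions, 0 were higher and 1 lower in fully resistant than in sensitive cells. Of all genes 14.7% and 12.2% were. In fully over intermediate resistant cells 3 of 13 were higher, ACLY, IDH1 and SDHA, and 0 lower, beside 12.4% and 6.35% of all genes. All 11 neighbours of SDHA on chromosome 5 were higher there too, with a median log2 ratio of 0.78, against 0.83 for SDHA.

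Among the regulators, EPAS1, which encodes HIF-2 alpha, had 11.7 CPM in fully resistant cells, against 126 CPM in sensitive cells. HIF1A had 42.5 CPM in fully resistant cells, against 64.9 CPM in sensitive cells. These 2 were the lower ones of 5 hypoxia factors and regulators, and 0 were higher, beside 12.2% and 14.7% of all genes. Of 6 hypoxia-induced genes outside glycolysis at 20 CPM or more, 2 were higher and 0 lower in fully resistant than in sensitive cells, beside 14.7% and 12.2% of all genes. BNIP3L, a receptor for mitochondrial autophagy, had 40.9 CPM in fully resistant and 19.9 CPM in sensitive cells, and DDIT4, an inhibitor of mTORC1, had 37.1 CPM in fully resistant and 21.3 CPM in sensitive cells. Under 20 CPM, VEGFA of the same list, an angiogenic growth factor chosen here after its values were seen, had 14.1 CPM in sensitive, 6.30 CPM in intermediate resistant and 3.24 CPM in fully resistant cells. VEGFA was 4.34-fold lower in fully resistant than in sensitive cells (3.85 to 4.90). The 11 measured genes of that list had a median log2 ratio of 0.34 in this pair, against 0.08 for all genes. MYCN had 1242 CPM in sensitive, 413 CPM in intermediate resistant and 446 CPM in fully resistant cells, and MYC stayed at or below 0.292 CPM. No relation between these regulators and the genes of the set was tested.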

How the data were processed

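The authors deposited raw UMI counts per gene and barcode, unnormalized and with no barcode filter, for 3 libraries of 1 sample each. Per the submitters' processing notes, bcl2fastq, Cell Ranger and the hg19 build were used, and versions are not given in the sources used here. Groups follow the response given in the labels, and 0 per-sample columns were left unused.

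Cells were called by the rule given above, which lost 0, 4 and 2 barcodes to the mitochondrial limit. Counts were summed per library and divided by the library total (CPM). One UMI stands for one molecule whatever the transcript length, so levels were not divided by length. Ratios carry exact conditional Poisson intervals, and shares exact Clopper-Pearson intervals. Doublets were kept and no caller was run. Cells over 2 times the library median UMIs (311, 130 and 128) were left out as an alternative. Neighbours were up to 10 measured genes on each side, by RefSeq gene order (19234 of 32738 genes matched). Scaling alternatives used TMM in edgeR 4.0.16 and median of ratios in DESeq2 1.42.0 (R 4.3.3), with no count test. Sums used Python 3.11.15, numpy 2.4.6, scipy 1.17.1 and pandas 2.3.3. The ratio step was tested on simulated data. The named genes are all members, up to 4 per further list with the greatest absolute log2 ratio at 20 CPM or more, and HIF1A, EPAS1, MYC and MYCN. A few named genes and the values of 1 list of markers, which differed between the libraries, are not reported here. The members and lists were chosen with earlier results of these data known.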

Additional observations from a re-analysis of the deposited data

Results flagged for a closer look

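Immune cell markers gave 313 UMIs in barcodes of 20 to 200 UMIs of the intermediate resistant library, 88.3 CPM of the UMIs in such barcodes, against 1.97 CPM in its cells. Such barcodes hold too few UMIs to be cells and are not used in any comparison above. In the fully resistant library the same class of barcodes held 4 immune marker UMIs (1.09 CPM), and in the sensitive library 54 (21.5 CPM). The 30 genes of the set measured this way drew at most 0.593% of their level from free RNA in any library.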

How the results depend on the processing

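No paired analysis was possible because each group has 1 library, and for the same reason no replicate could be left out. The count of genes higher in fully resistant than in sensitive cells, 1 (HK2, at 20.05 CPM against the minimum of 20), became 0 with TMM, with median of ratios, with at least 10000 UMIs per cell, with at most 10% mitochondrially encoded UMIs, with all barcodes, without cells over 2 times the median UMIs and in cells below the median share of cell cycle genes. It became 2, HK2 and PDK1, when scaling left out mitochondrially encoded and ribosomal protein genes, at a minimum of 5 CPM and with no filter. In fully over intermediate resistant cells the count of 1 became 0 under those first 7 settings and at 2-fold, 2 with scaling without those genes and at 5 CPM, and 3 with no filter. The 4 lower genes became 1, SLC2A1, at 2-fold in both pairs, and under the other settings stayed between 4 and 5 over sensitive cells and 4 and 6 over intermediate resistant cells. In intermediate resistant cells the 0 lower genes became 1 (HK1) with scaling without those genes and at 5 CPM, and 2 with no filter. The median log2 ratio moved to -0.26 with TMM in fully resistant over sensitive cells. In intermediate resistant over sensitive cells it reversed to 0.033 with TMM and 0.042 without those genes. In fully over intermediate resistant cells it moved to -0.17 with TMM, -0.14 with median of ratios and -0.14 without those genes. The cause was not tested, except that HK2 crosses the minimum of 20. The other 82 values of these counts and medians stayed close, counts within 1.5 times and medians within their counting interval. Single genes were less stable. Of 900 values of their ratios, taken over 10 settings, 257 moved and 643 stayed the same. With 1 library a state, no difference here is separated from variation between cultures.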

Other observations

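Beside the pathway, the pentose phosphate branch, which makes NADPH and ribose from glucose 6-phosphate, differed in both directions. Of 7 genes at 20 CPM or more, 2 were higher and 1 lower in fully resistant than in sensitive cells, where 14.7% and 12.2% of all genes were. TKT, transketolase, had 191 CPM in sensitive, 185 CPM in intermediate resistant and 67.5 CPM in fully resistant cells. TKT lies on chromosome 3, as does PDHB, and all 20 of its neighbours were lower in fully resistant than in sensitive cells, with a median log2 ratio of -0.85, against -1.499 for TKT. TALDO1, transaldolase, had 41.7 CPM in sensitive, 75.6 CPM in intermediate resistant and 90.7 CPM in fully resistant cells. Its 20 neighbours on chromosome 11 were all higher in fully resistant than in sensitive cells, with a median log2 ratio of 1.11, against 1.12 for TALDO1. PGLS, which opens the lactone of the oxidative arm, had 62.5 CPM in fully resistant and 37.3 CPM in sensitive cells.

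TXNIP, a glucose-responsive gene whose protein restrains glucose uptake, had 42.5 CPM in sensitive, 62.4 CPM in intermediate resistant and 12.6 CPM in fully resistant cells. MLXIP, which encodes the glucose-responsive factor MondoA, had 32.7 CPM in sensitive, 54.8 CPM in intermediate resistant and 56.6 CPM in fully resistant cells. These were the 1 lower and the 1 higher of 4 glucose sensing genes in fully resistant against sensitive cells, beside 12.2% and 14.7% of all genes. Of the 20 neighbours of MLXIP on chromosome 12, 19 were higher in that pair, with a median log2 ratio of 0.57, against 0.79 for MLXIP. GOT2, the mitochondrial aspartate aminotransferase of the malate-aspartate shuttle, had 49.2 CPM in sensitive, 32.6 CPM in intermediate resistant and 27.2 CPM in fully resistant cells. All 20 of its neighbours on chromosome 16 were lower than in sensitive cells in both resistant libraries. In serine synthesis, PHGDH had 79.6 CPM in fully resistant and 124.6 CPM in sensitive cells. SHMT2, which makes glycine from serine, had 54.9 CPM in fully resistant and 31.4 CPM in sensitive cells. Of the 20 neighbours of SHMT2 on chromosome 12, 17 were higher too, with a median log2 ratio of 0.56, against 0.81 for SHMT2.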
